A study of Moricandia moricandioides and Moricandia arvensis and Moricandia suffruticosa with 11 samples.

Results

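Glycine decarboxylase (GLD) and mitochondrial serine hydroxymethyltransferase (SHM) form the photorespiratory system that turns glycine into serine in leaf mitochondria. Their transcripts were followed here in leaves of 3 *Moricandia* species. The set was chosen by identifier and holds 10 of the 33602 Arabidopsis gene models in the deposited table: GLDP1 (AT4G33010) and GLDP2 (AT2G26080) for the P-protein, GLDT (AT1G11860) for the T-protein, GLDH1 (AT2G35370), GLDH2 (AT2G35120) and GLDH3 (AT1G32470) for the H-protein, mtLPD1 (AT1G48030) and mtLPD2 (AT3G17240) for the L-protein, and SHM1 (AT4G37930) and SHM2 (AT5G26780). RNA was sequenced from mature leaves of 4 *M. arvensis* plants of line MOR1 and 3 *M. suffruticosa* plants, which are C3-C4 intermediates, and of 4 plants of *M. moricandioides*, a C3 species. All plants were raised in a climate chamber and sampled before the reproductive state, early in the light period. Photosynthesis type is nested in species, so the effects of type and species cannot be told apart.

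In the GLD reaction the P-protein decarboxylates glycine and passes the remaining aminomethyl group to the lipoyl arm of the H-protein. The T-protein then releases ammonia and loads the carbon on tetrahydrofolate, and the L-protein, a dihydrolipoyl dehydrogenase, re-oxidises the arm and forms NADH. SHM joins the loaded carbon to another glycine and so makes serine. In C3 leaves this happens mainly in mesophyll cells, whereas in C3-C4 intermediates a P-protein confined to the bundle sheath moves the release of CO2 there, and glycine is carried between the cell types. Whole-leaf RNA, as used here, does not show in which cells a transcript lies.

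Counted reads per plant ranged from 11216204 to 13422102 in *M. arvensis*, from 10987959 to 14144453 in *M. suffruticosa* and from 12259898 to 14865167 in *M. moricandioides*. Values are reads per 1000000 counted reads (rpm), and fold changes come from counts in edgeR, fitted over the 15570 transcripts that passed its filter on low counts. A transcript was called higher or lower at a Benjamini-Hochberg adjusted p of at most 0.01. The library of *M. arvensis* plant 9 stood apart, with a scaling factor of 0.834, whereas the other 3 plants of that species had 1.04 to 1.17. *M. arvensis* plants 13 and 15 were closely alike (chi-square per transcript 4.69), as were *M. suffruticosa* plants 6 and 7 (8.08), against at least 25.9 in every other pair of plants of a species. Both close pairs exceeded counting noise, which does not show that their plants are independent. They were kept as separate plants, as in the labels. Of 4 leaf markers 3 had reads. Their summed level was 27488 to 39200 rpm in *M. arvensis* plants and 28907 to 33150 rpm in *M. suffruticosa*, against 41893 to 50367 rpm in *M. moricandioides*. Of the 4, LHCB1.1 was at 0. The markers did not all move alike, since in *M. arvensis* RBCS1A (-1.19) and CA1 (-1.52) were called lower, whereas RCA had a log2 fold change of 0.02, and in *M. suffruticosa* the log2 fold changes of the 3 were -0.60, -0.91 and -0.57 (edgeR adjusted p = 0.122, 0.0435 and 0.109). For bundle sheath and vascular tissue 5 of 6 markers had reads, SWEET12 being at 0. Their summed level overlapped between the species, with 463 to 772 rpm in *M. arvensis*, 411 to 762 rpm in *M. suffruticosa* and 395 to 698 rpm in *M. moricandioides*. SUC2 and SWEET11 made up most of that sum. Of the less abundant markers SULTR2;2 was called lower in *M. arvensis*, at 18.7 rpm on average against 35.7 rpm in *M. moricandioides* (-1.04), and APL higher in *M. suffruticosa*, at 31.0 rpm against 17.1 rpm (0.79). Markers of flowers summed to at most 2.23 rpm in any plant, and those of dividing cells to at most 2.97 rpm. The 1 flower marker tested, SEP3, was called higher in *M. arvensis* than in *M. moricandioides* (log2 fold change 4.36), at 1.37 rpm on average against 0.0581 rpm.

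Each subunit was represented by at least 1 row with reads. GLDP2, GLDT, GLDH2, GLDH3, mtLPD1, SHM1 and SHM2 had reads in every plant and passed the filter. GLDP1, GLDH1 and mtLPD2 had 0 reads in all 11 plants, which allows a level of up to 0.202 to 0.273 rpm depending on the library, for counting error only. Such empty rows were common, since 8421 of the 27416 protein-coding gene models (30.7%) had no read in any plant. Reads were assigned across species to the best match in a reduced set of Arabidopsis coding sequences, so a row names the Arabidopsis sequence that the reads matched and does not say which *Moricandia* copy they came from. Whether the reduced set held the empty rows is not known from the labels or methods. The name GLDP2 therefore does not tell a GLDP2-type from a GLDP1-type gene, and the 0 reads of GLDP1 do not show that a GLDP1-type gene was silent. The same holds for GLDH1 and mtLPD2. Near-identical copies may also have exchanged reads, and for this reason values of single copies are uncertain and sums over copies are given beside them.

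Together the 10 transcripts took 1.46 ± 0.12% of the counted reads of *M. arvensis* (SD, n = 4) and 1.14 ± 0.22% of those of *M. suffruticosa* (n = 3), against 1.09 ± 0.04% in *M. moricandioides* (n = 4). Nearly all of these reads fell on GLDP2, GLDT, GLDH3, mtLPD1 and SHM1. GLDH2 and SHM2 stayed below 52 rpm in every plant. Coding lengths were not used here, so reads of different genes are not ranked as levels, and only differences between species are compared.

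**Figure D1:**
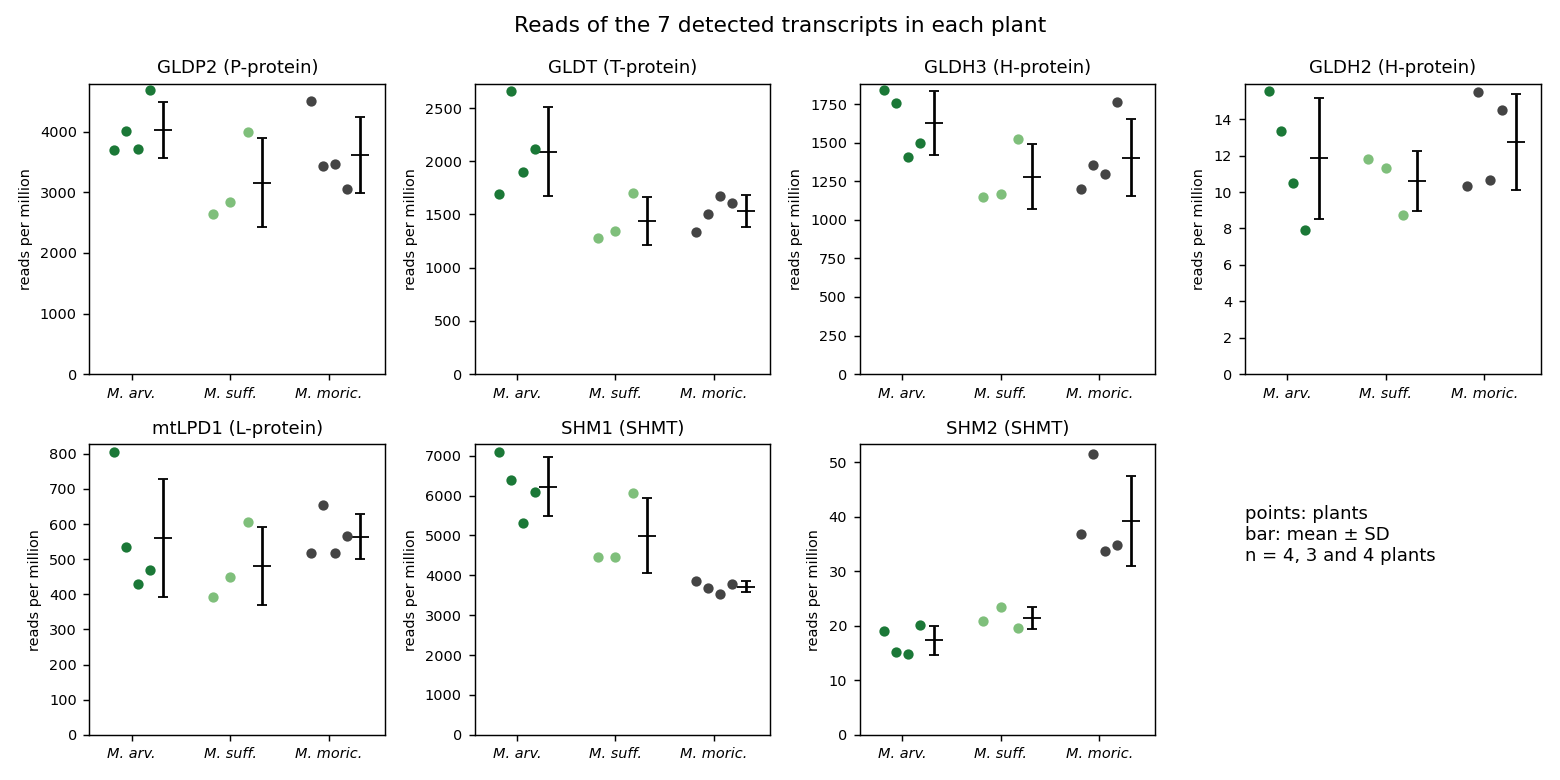
Level in rpm of the 7 transcripts with reads in each plant (points) with the mean and SD of the species (bars), for *M. arvensis* (M. arv., n = 4), *M. suffruticosa* (M. suff., n = 3) and *M. moricandioides* (M. moric., n = 4), each panel on its own axis from 0. SHM1 lies higher and SHM2 lower in all plants of both intermediates than in *M. moricandioides*, whereas GLDP2, GLDH3, GLDH2 and mtLPD1 overlap among the species.

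All P-protein reads, from whichever copy, stood on the row GLDP2 for the decarboxylating subunit, which had 3693, 4007, 3707 and 4680 rpm in *M. arvensis* plants 9, 12, 13 and 15, 2648, 2832 and 3994 rpm in *M. suffruticosa* plants 6, 7 and 8, and 4502, 3438, 3461 and 3052 rpm in *M. moricandioides* plants 6, 8, 12 and 15. The species overlapped, and the lowest plants were the 2 closely alike ones of *M. suffruticosa*. Against *M. moricandioides*, GLDP2 differed by a log2 fold change of 0.04 for *M. arvensis* (95% interval -0.41 to 0.49, edgeR adjusted p = 0.883) and of -0.25 for *M. suffruticosa* (-0.74 to 0.23, adjusted p = 0.411). A change in *M. arvensis* beyond 1.40-fold higher or below 0.754 of the level in *M. moricandioides* lies outside the interval. In bulk leaf RNA fewer cells that express a transcript and less of it per cell cannot be told apart.

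GLDT, the aminomethyltransferase that releases ammonia, had 1689, 2657, 1897 and 2119 rpm in *M. arvensis* plants, 1277, 1340 and 1699 rpm in *M. suffruticosa*, and 1340, 1500, 1677 and 1612 rpm in *M. moricandioides*, with plants in the same order as above. All 4 *M. arvensis* plants lay above those of *M. moricandioides*, plant 9 by a narrow margin, and *M. suffruticosa* overlapped both. The log2 fold change was 0.32 for *M. arvensis* (95% interval -0.11 to 0.75, adjusted p = 0.197) and -0.16 for *M. suffruticosa* (-0.63 to 0.30, adjusted p = 0.588), each against *M. moricandioides*. Neither passed the threshold.

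Of the H-protein rows, which encode the lipoylated shuttle subunit, GLDH3 had 1845, 1761, 1411 and 1497 rpm in *M. arvensis* plants, 1151, 1168 and 1522 rpm in *M. suffruticosa* and 1202, 1354, 1295 and 1766 rpm in *M. moricandioides*. The highest *M. moricandioides* plant exceeded 3 of the 4 *M. arvensis* plants, and the species overlapped. Log2 fold changes against *M. moricandioides* were 0.12 for *M. arvensis* (-0.39 to 0.63, adjusted p = 0.696) and -0.20 for *M. suffruticosa* (-0.75 to 0.34, adjusted p = 0.562). GLDH2 had 7.93 to 15.6 rpm in *M. arvensis*, 8.74 to 11.8 rpm in *M. suffruticosa* and 10.3 to 15.5 rpm in *M. moricandioides*, and did not pass the test either (log2 fold changes -0.18 and -0.34, adjusted p = 0.618 and 0.404). It made up 0.714 ± 0.132% of H-protein reads in *M. arvensis*, 0.849 ± 0.243% in *M. suffruticosa* and 0.904 ± 0.153% in *M. moricandioides* (SD, n = 4, 3 and 4), with overlap between all species.

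The L-protein row mtLPD1, whose product also serves the mitochondrial 2-oxo acid dehydrogenases, had 805, 535, 429 and 470 rpm in *M. arvensis* plants, 391, 449 and 605 rpm in *M. suffruticosa* and 517, 654, 518 and 566 rpm in *M. moricandioides*. *M. arvensis* plant 9 was the highest of all 11 plants, and *M. arvensis* plants 13 and 15 were among the lowest. The log2 fold change was -0.06 for *M. arvensis* (-0.68 to 0.55, adjusted p = 0.871) and -0.29 for *M. suffruticosa* (-0.96 to 0.38, adjusted p = 0.499). Without plant 9 the *M. arvensis* value was -0.47.

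For both mitochondrial SHM transcripts the rpm of the intermediates did not overlap that of *M. moricandioides*. The same held for 40.2% of all tested transcripts in *M. arvensis* and 41.6% in *M. suffruticosa*. SHM2 but not SHM1 passed the test. SHM1, which in Arabidopsis leaves carries the photorespiratory reaction, had 7105, 6396, 5319 and 6081 rpm in *M. arvensis* plants and 4457, 4465 and 6074 rpm in *M. suffruticosa* plants, against 3871, 3682, 3533 and 3793 rpm in *M. moricandioides*. All plants of both intermediates lay above all of *M. moricandioides*, whose 4 plants spanned a narrow range. *M. arvensis* and *M. suffruticosa* overlapped. The means were 6225 ± 741, 4999 ± 931 and 3720 ± 147 rpm in that order of species (SD, n = 4, 3 and 4). In *M. arvensis* the level was 1.57 times that of *M. moricandioides* (95% interval 1.12 to 2.21, log2 fold change 0.65, adjusted p = 0.0290), and in *M. suffruticosa* 1.29 times (0.895 to 1.85, log2 fold change 0.36, adjusted p = 0.267). Neither was called at 0.01. In *M. arvensis* SHM1 was called with DESeq2 (0.63, adjusted p = 0.00818) and with scaling by library totals (0.74, adjusted p = 0.000748), and without plant 9 its log2 fold change was 0.43 (adjusted p = 0.0554).

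The row of SHM2, the second mitochondrial SHM of Arabidopsis, was lower in both intermediates. It had 19.0, 15.2, 14.9 and 20.2 rpm in *M. arvensis* plants and 21.0, 23.5 and 19.6 rpm in *M. suffruticosa* plants, against 36.9, 51.5, 33.8 and 34.9 rpm in *M. moricandioides*. Plants of both intermediates lay below all *M. moricandioides* plants, and plant 8 of *M. moricandioides* was the highest. SHM2 fell to 0.414 of the *M. moricandioides* level in *M. arvensis* (95% interval 0.315 to 0.545, log2 fold change -1.27 ± 0.18 SE, adjusted p = 0.000151) and to 0.519 in *M. suffruticosa* (0.386 to 0.699, log2 fold change -0.94 ± 0.20 SE, adjusted p = 0.00338). In *M. arvensis* the call was kept whichever plant was left out. In *M. suffruticosa* it was lost without plant 6, 7 or 8, with adjusted p = 0.0185, 0.0144 and 0.0130 and log2 fold changes of -0.92, -0.98 and -0.92. The summed leaf markers also were lower in both intermediates, in *M. arvensis* without a fall in RCA, and their part in the differences of SHM1 and SHM2 was not tested.

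Because SHM1 reads exceeded those of SHM2 by far in every plant, the fall in SHM2 involved few reads. Whether some of these reads came from an SHM1-type gene was not tested, so the fall is that of the row. SHM2 took 0.279 ± 0.039% of all mitochondrial SHM reads in *M. arvensis* plants and 0.438 ± 0.105% in those of *M. suffruticosa*, against 1.05 ± 0.22% in *M. moricandioides*, where plant 8 stood above the others. The shares of both intermediates lay below all of *M. moricandioides*. The exact 2-sided permutation test gave p = 0.0286 with *M. arvensis* and 0.0571 with *M. suffruticosa*, the smallest p that 4 against 4 and 3 against 4 plants allow, and both had an adjusted p of 0.257 over 18 tests of shares and ratios. SHM1 and SHM2 summed gave log2 fold changes of 0.64 in *M. arvensis* (0.16 to 1.13, adjusted p = 0.0310) and 0.35 in *M. suffruticosa* (-0.17 to 0.88, adjusted p = 0.279), close to those of SHM1 alone.

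**Figure D2:**
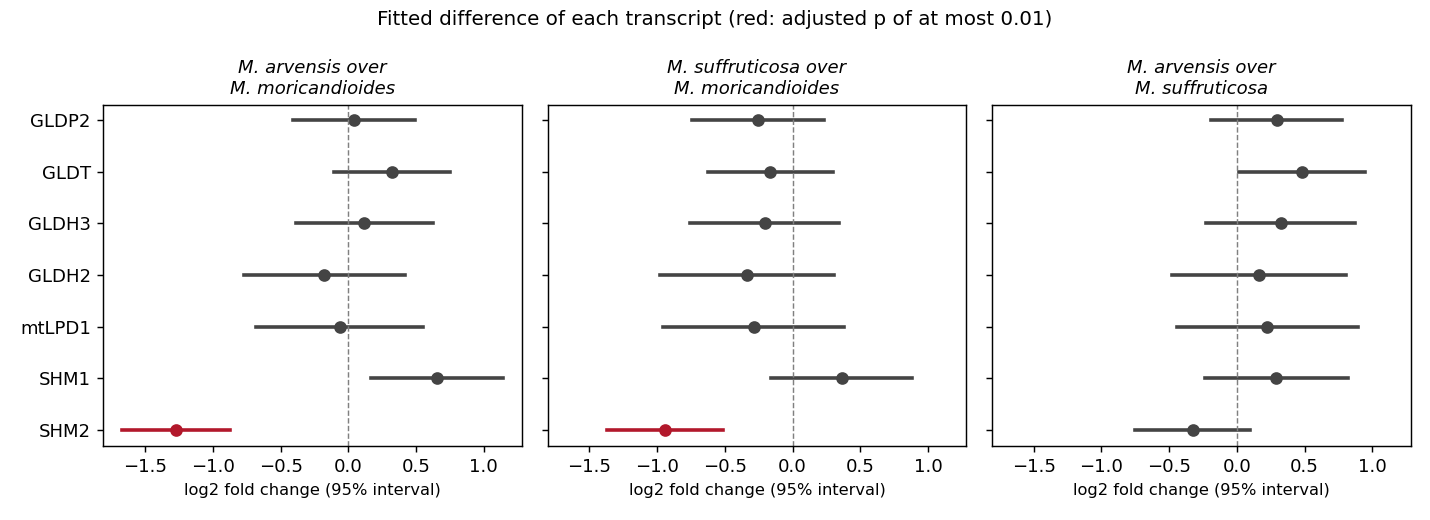
Log2 fold change (x axis, point) with its 95% interval (line) of the 7 transcripts in each pair of species, from edgeR over all 11 plants, red where the adjusted p was at most 0.01. SHM2 at -1.27 and -0.94 is red in both comparisons with *M. moricandioides*, no transcript is red between *M. arvensis* and *M. suffruticosa*, and the interval of SHM1 in *M. arvensis* lies above 0.

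In all, 1 of the 7 tested transcripts was called in *M. arvensis* against *M. moricandioides*, where 35.0% of all tested transcripts were called, 18.2% as higher and 16.7% as lower. The same 1 of 7 was called in *M. suffruticosa* against *M. moricandioides*, where 18.9% of all were called, 10.1% as higher and 8.82% as lower. The 2 comparisons share the *M. moricandioides* plants. Groups did not overlap in rpm for 3 of the 7 in *M. arvensis* (GLDT, SHM1 and SHM2), against 40.2% of all transcripts, and for 2 of 7 in *M. suffruticosa* (SHM1 and SHM2), against 41.6%. For *M. arvensis* the 7 had a median log2 fold change of 0.04 (0.02 over all transcripts), and for *M. suffruticosa* one of -0.25 (0.01 over all). The sums of the P- and L-proteins each held only 1 row with reads, and that of the H-protein was GLDH3 with few reads of GLDH2. Their log2 fold changes were thus bound to lie near those of their main rows, and lay within 0.01 of them. None of the 4 sums, SHM included, was called by edgeR in either comparison. At an unadjusted p below 0.05 edgeR gave 1 of 4 in *M. arvensis* and 0 of 4 in *M. suffruticosa*, DESeq2 called 1 and 0, and limma-voom 0 and 0.

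Between the 2 intermediates 0 of the 7 transcripts were called by edgeR, where 19.3% of all were. DESeq2 and limma-voom also called 0, and 1 of 7 had an unadjusted p below 0.05. That was GLDT, which differed by 0.48 on the log2 scale for *M. arvensis* against *M. suffruticosa* (95% interval 0.02 to 0.95, adjusted p = 0.1003). The remaining log2 fold changes were 0.29 for GLDP2 (-0.19 to 0.78), 0.32 for GLDH3 (-0.23 to 0.87), 0.16 for GLDH2 (-0.48 to 0.81), 0.23 for mtLPD1 (-0.44 to 0.89), 0.29 for SHM1 (-0.24 to 0.82) and -0.33 for SHM2 (-0.75 to 0.10). These intervals leave room for differences of up to 1.86-fold in mtLPD1 and 1.72-fold in GLDP2. For each of the 7 the rpm of the intermediates overlapped, whereas 38.1% of all transcripts did not.

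A ratio within a plant does not depend on the scaling of libraries, so the reads of each partner were divided by those of the P-protein. Mitochondrial SHM had 1.93, 1.60, 1.44 and 1.30 reads per P-protein read in *M. arvensis* plants 9, 12, 13 and 15 and 1.69, 1.58 and 1.53 in *M. suffruticosa* plants 6, 7 and 8, against 0.868, 1.09, 1.03 and 1.25 in *M. moricandioides* plants 6, 8, 12 and 15. All intermediates lay above all *M. moricandioides* plants, by 1.48-fold in *M. arvensis* and 1.52-fold in *M. suffruticosa* as means of log2 ratios. The exact 2-sided permutation test gave p = 0.0286 and 0.0571, again the smallest possible, with an adjusted p of 0.257 for each. The ratio overlapped between *M. arvensis* and *M. suffruticosa* (exact permutation p = 0.800).

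Ratios among the subunits of GLD itself overlapped between the species. T-protein reads per P-protein read were 0.521 ± 0.098 in *M. arvensis*, 0.460 ± 0.031 in *M. suffruticosa* and 0.437 ± 0.10 in *M. moricandioides* (SD, n = 4, 3 and 4). H-protein reads per P-protein read were 0.413 ± 0.078, 0.413 ± 0.028 and 0.407 ± 0.130 in the same order. L-protein reads per P-protein read were 0.142 ± 0.052, 0.153 ± 0.005 and 0.160 ± 0.035. The 9 exact permutation tests gave p = 0.343 to 0.971 (adjusted p = 0.771 to 0.971), and the T-protein ratio of *M. arvensis* was 1.21 times that of *M. moricandioides* as a mean of log2 ratios. The lowest T-, H- and L-protein ratios of *M. moricandioides* were all in its plant 6, which had the most P-protein reads of its species.

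**Figure D3:**
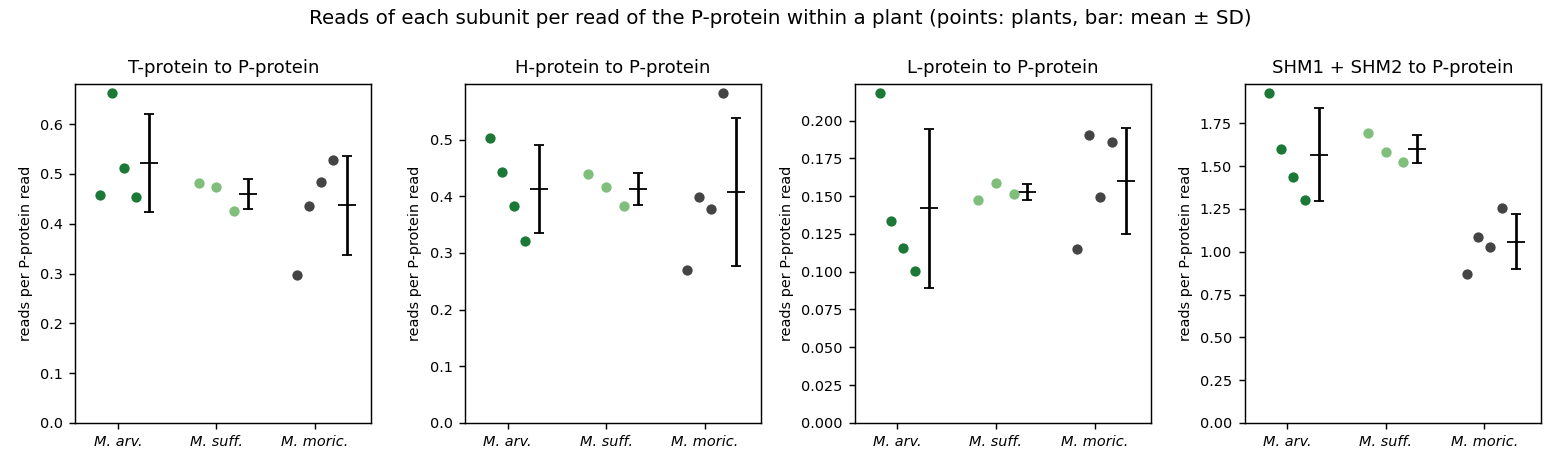
Reads of the T-protein, H-protein, L-protein and mitochondrial SHM per P-protein read in each plant (points) with mean and SD (bars), species abbreviated as M. arv. (*M. arvensis*), M. suff. (*M. suffruticosa*) and M. moric. (*M. moricandioides*). Only in the last panel do both intermediates, at 1.30 to 1.93, lie above *M. moricandioides*, at 0.868 to 1.25.

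Plants of a species also varied together on scaled log2 counts. Relative to its species mean, *M. arvensis* plant 9 had positive log2 deviations for all 7 transcripts and plant 13 negative ones. *M. suffruticosa* plant 8 was above its mean for 5 of the 7. Plant 9 of *M. arvensis* is the library with the low scaling factor (0.834). In unscaled rpm it was the lowest plant of its species for GLDP2 (3693 rpm) and GLDT (1689 rpm). Within species, SHM1 followed mtLPD1 (Pearson r = 0.933 over 11 plants), GLDH3 (0.889) and GLDP2 (0.734). Without *M. arvensis* plant 9 these were 0.865, 0.815 and 0.772, and on unscaled log2 rpm of all 11 plants 0.827, 0.712 and 0.540. Of other pairs, GLDH3 and mtLPD1 had 0.860 on scaled counts and 0.684 on unscaled rpm. Some did not hold on unscaled rpm. GLDP2 and mtLPD1 went from 0.552 to 0.134, GLDT and mtLPD1 from 0.499 to 0.006, and GLDP2 and GLDH3 from 0.408 to -0.057. These are descriptions over plants that share their library's scaling. SHM2 did not follow SHM1 once *M. arvensis* plant 9 was left out (r = -0.10).

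**Figure D4:**
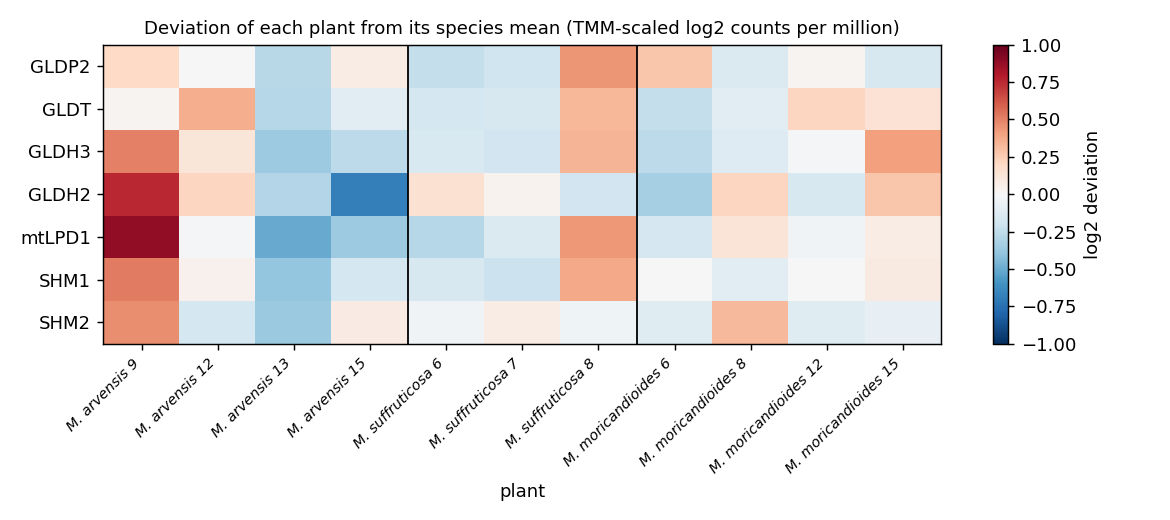
Deviation of each plant (columns, grouped by species) from its species mean for each transcript (rows), on the log2 scale after TMM scaling, from blue (lower) to red (higher). The column of *M. arvensis* plant 9 is red, but nearly white in the row of GLDT (0.03). That of *M. suffruticosa* plant 8 is red in the rows of GLDP2, GLDT, GLDH3, mtLPD1 and SHM1.

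SHM isoforms of other compartments supply one-carbon units outside photorespiration. Of the 5 other SHM rows, all tested, 2 were lower in *M. arvensis* and 1 in *M. suffruticosa* against *M. moricandioides*. Of all transcripts 16.7% and 8.82% were called lower, and 35.0% and 18.9% in either direction. The median log2 fold changes of the 5 rows were -0.02 and -0.19. The cytosolic SHM4 (AT4G13930) had 55.2, 62.1, 71.0 and 76.0 rpm in *M. arvensis* plants and 181, 206 and 163 rpm in *M. suffruticosa* plants, against 265, 290, 275 and 224 rpm in *M. moricandioides*. The 3 species did not overlap, *M. arvensis* being the lowest. SHM4 fell by 2.12 on the log2 scale in *M. arvensis* (adjusted p = 4.95e-07) and by 0.60 in *M. suffruticosa* (adjusted p = 0.00452). The call in *M. suffruticosa* was lost without its plant 6, 7 or 8 (edgeR adjusted p = 0.0247, 0.0146 and 0.0183) and with library totals (0.0260). SHM5 (AT4G13890) fell in *M. arvensis* alone past the threshold, with 4.70 to 7.41 rpm in *M. arvensis* plants and 15.7 to 22.2 rpm in *M. suffruticosa*, against 15.5 to 26.5 rpm in *M. moricandioides* (log2 fold change in *M. arvensis* -1.93, adjusted p = 6.43e-06). SHM5 had 6.46 to 9.72% of the reads of SHM4 and SHM5 in every plant, and reads of near-identical copies cannot be told apart here. Plastidial SHM3 (AT4G32520) differed from *M. moricandioides* by -0.02 for *M. arvensis* and 0.47 for *M. suffruticosa* on the log2 scale, and SHM6 (AT1G22020) by 0.28 and -0.49. Neither was called (smallest adjusted p = 0.0405 and 0.0255). Between the intermediates, SHM4 and SHM5 were lower (-1.53 and -1.74) and SHM6 higher (0.77) in *M. arvensis* (adjusted p = 1.09e-05, 5.14e-05 and 0.00245). The SHM6 call was lost without *M. suffruticosa* plant 8 (edgeR adjusted p = 0.0113).

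**Figure D5:**
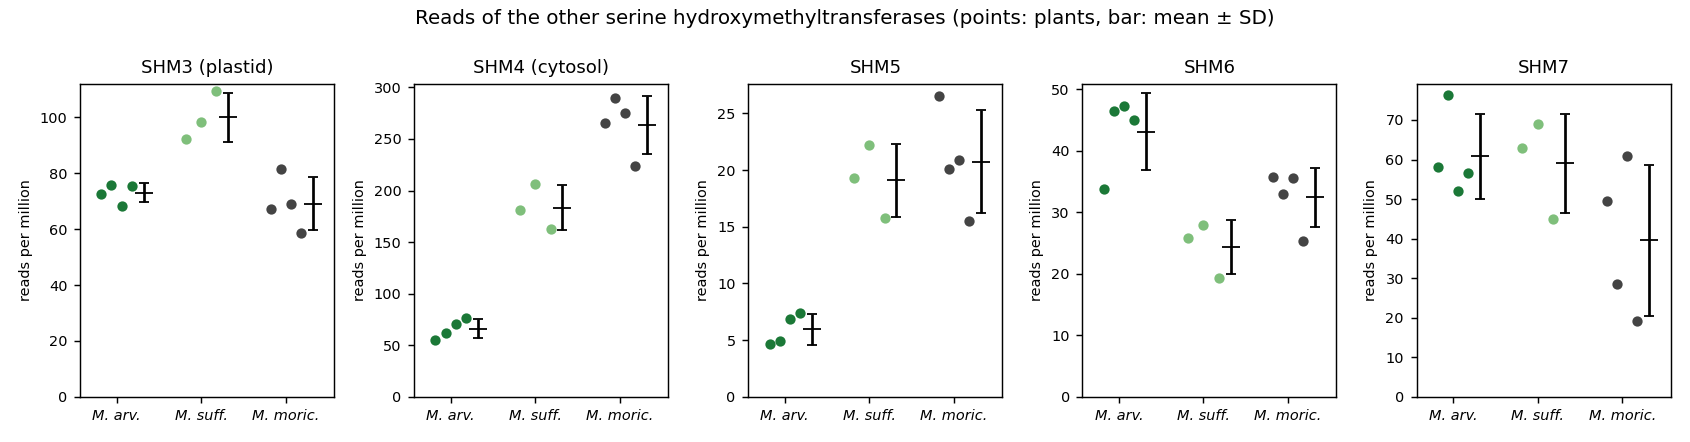
Level in rpm of the 5 SHM rows outside the mitochondrial pair in each plant (points) with mean and SD (bars), each panel on its own axis from 0, for *M. arvensis* (M. arv.), *M. suffruticosa* (M. suff.) and *M. moricandioides* (M. moric.). SHM4 falls in separate ranges in the 3 species, with 55.2 to 76.0 rpm in *M. arvensis*, 163 to 206 rpm in *M. suffruticosa* and 224 to 290 rpm in *M. moricandioides*.

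The H-protein works only with lipoic acid attached. Of the 7 genes of mitochondrial lipoate synthesis, 1 rose in each intermediate against *M. moricandioides*, a share below the 35.0% and near the 18.9% of all transcripts called. The gene called was lipoyl synthase LIP1, at 201 ± 21 rpm in *M. arvensis* plants and 207 ± 32 rpm in *M. suffruticosa* plants, against 110.3 ± 4.0 rpm in *M. moricandioides* (log2 fold changes 0.77 and 0.83, adjusted p = 0.00349 and 0.00573), and both intermediates lay above all *M. moricandioides* plants. The LIP1 call in *M. arvensis* was lost without *M. moricandioides* plant 6 or 8 (edgeR adjusted p = 0.0126 and 0.0125). In *M. suffruticosa* it was lost without its plant 6 or 7 or without any plant of *M. moricandioides* (0.0114 to 0.0307). The octanoyltransferase LIP2, the ligase LPLA and the acyl carrier protein mtACP1 were not called (smallest adjusted p = 0.0689, 0.0751 and 0.0250). Over the list the median log2 fold change was 0.20 for *M. arvensis* and 0.06 for *M. suffruticosa*. Plastidial L-proteins, which serve pyruvate dehydrogenase in the chloroplast, were not called in either species (smallest adjusted p = 0.0191 for ptLPD2 and 0.727 for ptLPD1). Log2 fold changes were -0.57 and -0.31 for ptLPD2 and -0.09 and 0.04 for ptLPD1 in *M. arvensis* and *M. suffruticosa*.

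Mitochondrial complexes that share the L-protein with GLD were represented by 12 tested genes of 15 listed. Of these, 4 rose and 1 fell in *M. arvensis*, and 2 rose in *M. suffruticosa*, each against *M. moricandioides*, where 35.0% and 18.9% of all transcripts were called. The medians were 0.08 and 0.05. Of those called, 3 of 5 in *M. arvensis* and both in *M. suffruticosa* belonged to branched-chain 2-oxo acid dehydrogenase, which breaks down leucine, isoleucine and valine. Its tested rows were BCKDHE1A1, BCKDHE1A2, BCDHB1 and DIN3. They did not move alike, since in *M. arvensis* BCKDHE1A2 and BCDHB1 were called higher and DIN3 lower. Its E1 alpha row BCKDHE1A2 had 27.0 ± 5.3 rpm in *M. arvensis* plants and 5.20 ± 3.57 rpm in *M. suffruticosa* plants, against 0.656 ± 0.238 rpm in *M. moricandioides* (log2 fold changes 5.27 and 2.90, adjusted p = 6.47e-06 and 0.00106), though limma-voom did not call it in *M. suffruticosa* (adjusted p = 0.0131). The other E1 alpha row, BCKDHE1A1, was highest in *M. suffruticosa*, with 57.5 ± 11.8 rpm in *M. arvensis* plants and 114 ± 3 rpm in *M. suffruticosa* plants, against 37.1 ± 3.4 rpm in *M. moricandioides*, and was called in *M. suffruticosa* (1.54, adjusted p = 6.61e-05). In *M. arvensis* the oxoglutarate dehydrogenase subunits OGDH2 and ODHB2 also rose (0.88 and 0.58, adjusted p = 0.000439 and 0.00112). The rule for named genes leaves out the E1 beta row BCDHB1 (0.75) and the E2 row DIN3 (-1.05), which were also called in *M. arvensis* (adjusted p = 0.00403 and 0.00362) and were added after their values were seen. The call of BCDHB1 was lost without *M. moricandioides* plant 6 or 15 (edgeR adjusted p = 0.0149 and 0.0130). That of DIN3 was lost without *M. moricandioides* plant 12 or *M. arvensis* plant 12, 13 or 15 (0.0105 to 0.0133).

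Tetrahydrofolate accepts the carbon that GLD releases and hands it to SHM. Of 12 listed genes of folate metabolism 9 were tested, and 1 rose and 2 fell in each intermediate (35.0% of all transcripts were called in *M. arvensis* and 18.9% in *M. suffruticosa*), with medians of 0.08 (*M. arvensis*) and 0.16 (*M. suffruticosa*). The 5-formyltetrahydrofolate cycloligase 5-FCL, which recycles a folate that SHM forms as a side product and that inhibits it, had 43.8 ± 4.5 rpm in *M. arvensis* plants and 42.7 ± 2.4 rpm in *M. suffruticosa* plants, against 11.6 ± 0.4 rpm in *M. moricandioides*. It rose by 1.82 and 1.80 on the log2 scale (adjusted p = 9.43e-06 and 4.10e-05), and the ranges of both intermediates lay above that of *M. moricandioides*. The dihydrofolate reductase-thymidylate synthase THY1 fell in both (-1.23 and -0.97, adjusted p = 2.56e-05 and 0.000469). The reductase MTHFR2 fell in *M. arvensis* (-0.96, adjusted p = 0.000250), and the formate ligase THFS in *M. suffruticosa* (-0.75, adjusted p = 0.00206). For THFS the difference between the intermediates itself passed the test (0.83 in *M. arvensis* against *M. suffruticosa*, adjusted p = 0.00121). Its fall in *M. suffruticosa* was not called without plant 6 or 7 of that species (edgeR adjusted p = 0.0168 and 0.0146).

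Of 15 photorespiratory genes outside the mitochondrial reaction 13 were tested. Against *M. moricandioides*, *M. arvensis* had 3 of these lower (median of the list 0.15) and *M. suffruticosa* 1 (median -0.36), beside 16.7% and 8.82% of all transcripts called lower. Phosphoglycolate phosphatase PGLP1, the entry enzyme of the pathway, fell in both (-0.68 and -0.83, adjusted p = 0.00551 and 0.00532). In *M. arvensis* its call was lost without *M. arvensis* plant 12, 13 or 15 or *M. moricandioides* plant 12 or 15 (edgeR adjusted p = 0.0123 to 0.0186) and with only these 2 species in the fit (0.0146). In *M. suffruticosa* it was lost without *M. suffruticosa* plant 6, 7 or 8 or *M. moricandioides* plant 12 or 15 (0.0122 to 0.0290). Glycerate kinase GLYK, its last enzyme, and the plastidial dicarboxylate carrier DIT1, which supplies oxoglutarate for ammonia fixation, fell in *M. arvensis* (-1.29 and -1.31, adjusted p = 0.000460 and 0.000870). The glycolate and glycerate carrier PLGG1 was not called (smallest adjusted p = 0.0252). The rule for named genes leaves out the abundant rows GOX1, GOX2, CAT2, GGT1, AGT1 and HPR1, none of which was called. All had a higher mean rpm in *M. arvensis* than in *M. moricandioides*, as in GGT1 (2761 against 1804). In *M. suffruticosa* GOX1, GOX2, AGT1 and HPR1 had a lower mean rpm and CAT2 and GGT1 a higher one. The summed leaf markers were lower in both intermediates, and their part in the falls of PGLP1, GLYK and DIT1 was not tested.

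The transcripts most like SHM1, SHM2 and GLDP2 in pattern were sought among 9077 transcripts with a mean of at least 10 rpm, by Pearson correlation of scaled log2 counts over the 11 plants, as a description. For SHM1 these were a lycopene cyclase-like protein (AT2G32640, r = 0.966), fructose-bisphosphate aldolase 1 (AT2G21330, 0.952) and an RNA-binding protein (AT2G44710, 0.946). For SHM2 they were dicarboxylate transporter 2.2 (AT5G64280, 0.979), an AMMECR1 family protein (AT2G38710, 0.976) and the undescribed AT3G27050 (0.971). The values for GLDP2 were lower, with the undescribed AT5G11810 (0.888), an XH/XS domain protein (AT3G48670, 0.881) and AT3G25690 (0.876).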

How the data were processed

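The libraries of the 11 plants were read single-end over 100 bp, and the authors assigned each read to its best hit among Arabidopsis (TAIR10) coding sequences with BLAT in protein space. The deposited table holds counts, that is, whole reads per gene model before any scaling, and rpm values in which the authors divided them by the counted reads of the plant and multiplied by 1000000. A deposited table of read totals, with 1 entry that matches no plant, and the authors' own fold changes and p-values were not used. The transcripts and gene lists were chosen with earlier results of these data known.

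Differences between species were fitted to the counts with edgeR 4.0.16 in R 4.3.3 (filterByExpr with a minimum count of 10, TMM, quasi-likelihood F test over all 11 libraries). Between 10987959 and 14865167 counted reads per plant set the precision. Ratios were compared by exact 2-sided permutation tests in Python 3.11.15 with scipy 1.17.1. Named were all 10 transcripts, up to 4 genes of each list with the smallest adjusted p against *M. moricandioides*, and the 3 transcripts most like SHM1, SHM2 and GLDP2. Plants of different species share some numbers in the labels. Deviations from the species mean were little correlated between plants with the same number (0.0101 to 0.0287). Plants with unlike numbers were not compared, so whether the numbers pair plants was not settled. Alternatives were other scalings and filters, DESeq2 1.42.0, limma-voom (limma 3.58.1), fits of 2 species, an adjusted p of 0.05, a replicate block, 5 added reads and each plant left out. The test was checked on simulated counts in which few transcripts differed, in *M. arvensis* alone, and all shared one spread. That check does not cover the many differences and the closely alike plants of these data.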

Additional observations from a re-analysis of the deposited data

Results flagged for a closer look

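Of 74 groups of 4 plants checked for a single plant far from the rest, 6 were flagged, where chance flags about 1 in 20. The value given is the gap of that plant to the nearest other, as a share of the range of the species. It was 0.833 for SHM6 in *M. arvensis*, where plant 9 was low, and 0.831 for DIT1 in *M. arvensis*. In *M. moricandioides* it was 0.911 for ptLPD1, 0.848 for OGDH2, 0.926 for the share of SHM2 in mitochondrial SHM reads, where plant 8 was high, and 0.878 for the share of GLDH2 in H-protein reads, where plant 8 was also high.

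Effects against *M. moricandioides* differed between the 2 intermediates, by the test of *M. arvensis* against *M. suffruticosa* itself, for 7 transcripts named in the report, tissue markers apart. Of all tested transcripts 19.3% were called in that comparison. Genes of the other lists were named by their adjusted p against *M. moricandioides* or after their values were seen. Their count is therefore not compared with that share. The log2 differences were -1.53 for SHM4, -1.74 for SHM5, 0.77 for SHM6, -1.04 for BCKDHE1A1, 2.37 for BCKDHE1A2, 0.95 for BCDHB1 and 0.83 for THFS, each *M. arvensis* minus *M. suffruticosa*. The call of BCDHB1 was lost without *M. suffruticosa* plant 6 or 7 (edgeR adjusted p = 0.0130 and 0.0214), and that of SHM6 without plant 8 (0.0113).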

How the results depend on the processing

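*M. arvensis* against *M. moricandioides* gave 1 called transcript of 7, SHM2, and 2 with an adjusted p of 0.05, library totals or DESeq2, which added SHM1. The summed SHM reads were likewise called, 1 sum of 4, under these 3 settings and 0 otherwise. Leaving out any plant kept 1 call in *M. arvensis* and gave 0 to 1 in *M. suffruticosa* against *M. moricandioides*. A replicate block by plant number gave 0 calls in each comparison with edgeR (1, 1 and 0 of 7 at an unadjusted p below 0.05), with adjusted p = 0.0170 and 0.0382 for SHM2. Counting the named genes of the other lists, 26 of 31 calls were lost under the block. Whether the numbers pair the plants was not settled. Under the block *M. arvensis* against *M. moricandioides* rests on the shared numbers 12 and 15, and *M. suffruticosa* on 6 and 8. Plants 9 and 13 of *M. arvensis* and 7 of *M. suffruticosa*, whose numbers no other species has, add nothing. The block thus leaves few plants for each comparison, and the part of this in the lost calls was not tested. Between the intermediates, which share no number, the block rests on *M. moricandioides*. Directions turned under the block only for transcripts that were not called, with log2 fold changes of -0.17, 0.085 and -0.25 for GLDH3 in the 3 comparisons, 0.087 for GLDT in *M. suffruticosa* against *M. moricandioides*, -0.26 for GLDH2 and -0.15 for mtLPD1 between the intermediates, and -0.22 for mtACP1 in *M. arvensis* against *M. moricandioides*. With library totals SHM3 (0.078) and ptLPD1 (0.033) turned in *M. arvensis* against *M. moricandioides*. The cause was not tested. Scaling by coding length was not run.

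Leaving out single plants turned small differences too. For *M. arvensis* against *M. moricandioides* the log2 fold change ranged from -0.049 to 0.14 for GLDP2, -0.095 to 0.25 for GLDH3, -0.50 to 0.0061 for GLDH2, -0.47 to 0.086 for mtLPD1, -0.16 to 0.044 for SHM3 and -0.23 to 0.073 for ptLPD1. For *M. suffruticosa* against *M. moricandioides* it ranged from -0.042 to 0.23 for LIP2, -0.48 to 0.0098 for LPLA and -0.11 to 0.15 for ptLPD1, and between the intermediates from -0.15 to 0.37 for GLDH2 and -0.17 to 0.47 for mtLPD1. Of the log2 ratios to the P-protein, the H-protein ranged from -0.13 to 0.25, -0.11 to 0.26 and -0.12 to 0.096 in *M. arvensis* and *M. suffruticosa* against *M. moricandioides* and between the intermediates. For *M. suffruticosa* against *M. moricandioides* the L-protein ranged from -0.19 to 0.051 and the T-protein from -0.068 to 0.21, and between the intermediates SHM from -0.15 to 0.040. The share of GLDH2 in H-protein reads of *M. suffruticosa* minus *M. moricandioides* ranged from -0.14 to 0.084 percentage points. The SHM ratio kept its direction against *M. moricandioides*, with 0.46 to 0.65 in *M. arvensis* and 0.51 to 0.69 in *M. suffruticosa*, and the share of SHM2 in percent likewise, with -0.81 to -0.66 and -0.65 to -0.50.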
